A study of Homo sapiens with 6 samples.

Results

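The genes of the tumor necrosis factor (TNF) ligand and receptor superfamily were followed in HDQ-P1 cells exposed to Y-320. The set was taken by name: every row of the deposited table whose Ensembl identifier matched a symbol starting with TNFRSF or TNFSF, plus TNF, FAS, FASLG, CD40, CD27, CD70, LTBR and NGFR. It held 41 of the 40295 rows, 15 ligands and 26 receptors. A gene counted as detected with 10 or more estimated counts in at least 3 libraries, which 29 of the 41 genes reached, against 16596 rows of the whole table. HDQ-P1 is an established human breast cancer cell line, and Y-320 is a small molecule that the study tested as an enhancer of the readthrough of premature stop codons. RNA was sequenced from 3 samples treated with Y-320 (1 μM, 48 h) and from 3 samples of untreated cells, for which no solvent is described. Both groups are the same cell line without any other agent, and the labels do not say that the 3 samples of a group were separate cultures, so p-values measure the spread between these samples, which may be technical.

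Ligands of the superfamily are mostly membrane proteins that act as trimers and can be shed, and each binds 1 or a few receptors. Receptors with a death domain recruit adaptors that can activate caspases, other receptors bind TRAF proteins and activate NF-κB and stress kinases, and decoy receptors bind ligand without a full signal. In epithelial and carcinoma cells the family is known for apoptosis through FAS and the receptors of TNFSF10 (TRAIL), and for inflammatory signalling through the TNF receptors.

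Sequence upstream of some members is given here because 2 motifs that are read out by inducible factors occur before them. They are kappaB (bound by NF-κB) and the interferon-stimulated response element (ISRE, searched as GAAA repeated after any 2 bases). Most of these members rose or fell with Y-320, as did 51.5% of all genes tested, while TNFRSF14 did not pass the test. The 250 bases before the start in RefSeq (GRCh38.p14) were searched on both strands for 20 detected members with an entry, and positions are counted from that start. The ligand TNFSF10 had 1 ISRE match at -187, and its upstream sequence to the first annotated transcript base in GENCODE is at chr3:172523476-172523680 on the minus strand, with the match in capitals.
TNFSF10: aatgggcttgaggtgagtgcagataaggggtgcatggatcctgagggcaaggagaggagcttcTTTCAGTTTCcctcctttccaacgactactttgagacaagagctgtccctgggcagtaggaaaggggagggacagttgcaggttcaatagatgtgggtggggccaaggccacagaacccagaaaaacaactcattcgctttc

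ISRE matches also stood before TNFSF9 (position -194, chr19:6530822-6530851, plus strand) and TNFRSF1B (position -10, chr1:12166961-12166990, plus strand), both outside the annotated gene. They are shown with the match in capitals.
TNFSF9: tggaaggccgGAAACGGAAAggagagcgaa
TNFRSF1B: tggcccgctggggcgcgggcTTTCGCTTTC
ISRE was present in 3 of the 20 members and in 3.02% of the 35116 promoters of the same length. Of these 3 genes TNFSF10 and TNFSF9 fell with Y-320 and TNFRSF1B rose, as detailed with their values further on.

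The kappaB motif was present in 3 of the 20 members, against 9.96% of all promoters, as overlapping matches before TNFRSF9 (chr1:7940894-7940923, minus strand), TNFSF14 (chr19:6670333-6670362, minus strand) and TNFRSF14 (chr1:2556276-2556305, plus strand). Capitals mark the bases that the overlapping matches cover.
TNFRSF9: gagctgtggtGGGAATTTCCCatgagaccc
TNFSF14: agggaaagctGGGGGCTCCCCactgcactt
TNFRSF14: atggactttGGGGGGCTCCCCcttctacag
All 3 windows lie inside the gene bounds of GENCODE, which has earlier starts for these genes. Exons of the gene's other transcripts cover 30 bases of the windows of TNFRSF9 and TNFSF14 and 0 bases of that of TNFRSF14. TNFRSF9 and TNFSF14 rose with Y-320, while TNFRSF14 did not pass the test. The AP-1 motif TGANTCA, present in 6.57% of promoters, was found before CD27, FAS, TNFRSF9, TNFSF14 and TNFSF15. The AP-1 matches of TNFRSF9 (-44) and TNFSF14 (-166) lie, like their kappaB matches, inside the gene bounds of GENCODE. The ATF4 element TGATGNAAT, present in 0.888%, was found in 0 of the 20 members, and TATAAA, present in 10.7%, was found before TNFRSF18, TNFSF10 and TNFSF9. For TNFSF10 the TATAAA match at -31 lies past the GENCODE start, inside the annotated gene and outside the sequence printed above. TNFRSF19 and TNFRSF8, which both fell by more than 1 on the log2 scale, had no match to any of these motifs. The matches describe letters only, and a link to the changes with Y-320 was not tested.

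The authors deposited estimated counts per gene, and a library held 21045401 to 22740535 counts, so that 3 counts, the limit used for an unseen gene, were worth 0.132 to 0.143 CPM (counts put on one scale for all library sizes). This limit covers counting error only. Levels are given as normalized CPM, scaled by the TMM method, and changes as log2 fold changes of Y-320 against untreated cells from edgeR's quasi-likelihood test fitted to 16580 genes, with Benjamini-Hochberg adjusted p. In total RNA from a whole culture, fewer cells that express a gene and less of its RNA in each cell cannot be told apart. Epithelial markers were all detected (7 of 7), with a summed level of 8108 to 8478 normalized CPM in untreated and 4859 to 4926 in treated libraries. The keratins among them were lower with Y-320. EPCAM was higher, with 6395 to 6844 counts in untreated and 8541 to 9284.93 in treated libraries. CDH1 had 6883.48 to 7138.01 counts in untreated and 6526.65 to 6945.01 in treated libraries. These overlap as unscaled counts only, and after scaling every treated library lay slightly below every untreated one. Of 11 leukocyte markers 6 were detected, with MS4A1 at 0 in every library, and their sum was 41.8 to 43.8 untreated and 73.2 to 80.5 with Y-320, most of it CD68. Fibroblast markers (5 of 5 detected) summed to 249 to 283 untreated and 127 to 146 with Y-320, and endothelial markers (3 of 4 detected) to 17.8 to 19.3 and 14.3 to 18.4. Of the endothelial markers, PECAM1 was higher with Y-320 (75.27 to 92.49 counts untreated, 165.22 to 264.15 treated). CDH5 was lower (274 to 309 counts untreated, 121 to 125 treated). The part of these shifts in the results was not tested.

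Y-320 changed 20 of the 29 tested superfamily genes, 11 upward and 9 downward (edgeR, adjusted p under 0.05). Across all genes tested, 51.5% passed, 26.2% higher and 25.4% lower, so the members' shares of 20 of 29, 11 of 29 and 9 of 29 stand against a background in which more than 1 gene in 2 passed. DESeq2 called 5 members higher and 9 lower, and 7 were higher without Y-320 replicate 2. A change of at least 1 on the log2 scale was reached by 6 members, TNFRSF19, TNFRSF11B, TNFRSF8 and TNFSF10 downward and TNFRSF9 and NGFR upward, against 5.02% of all genes. The libraries of the groups did not overlap for 22 members, 11 above and 11 below, against 59.2% of all genes. The median log2 fold change of the members was -0.07 and the median of its absolute value was 0.47, compared with 0.00 and 0.21 over all genes tested. By role, 3 ligands rose and 3 fell of 7 tested, 4 death domain receptors rose and 2 fell of 7, 4 receptors of the TRAF-binding group rose and 3 fell of 12, and 1 of 3 decoy receptors fell.

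**Figure D1:**
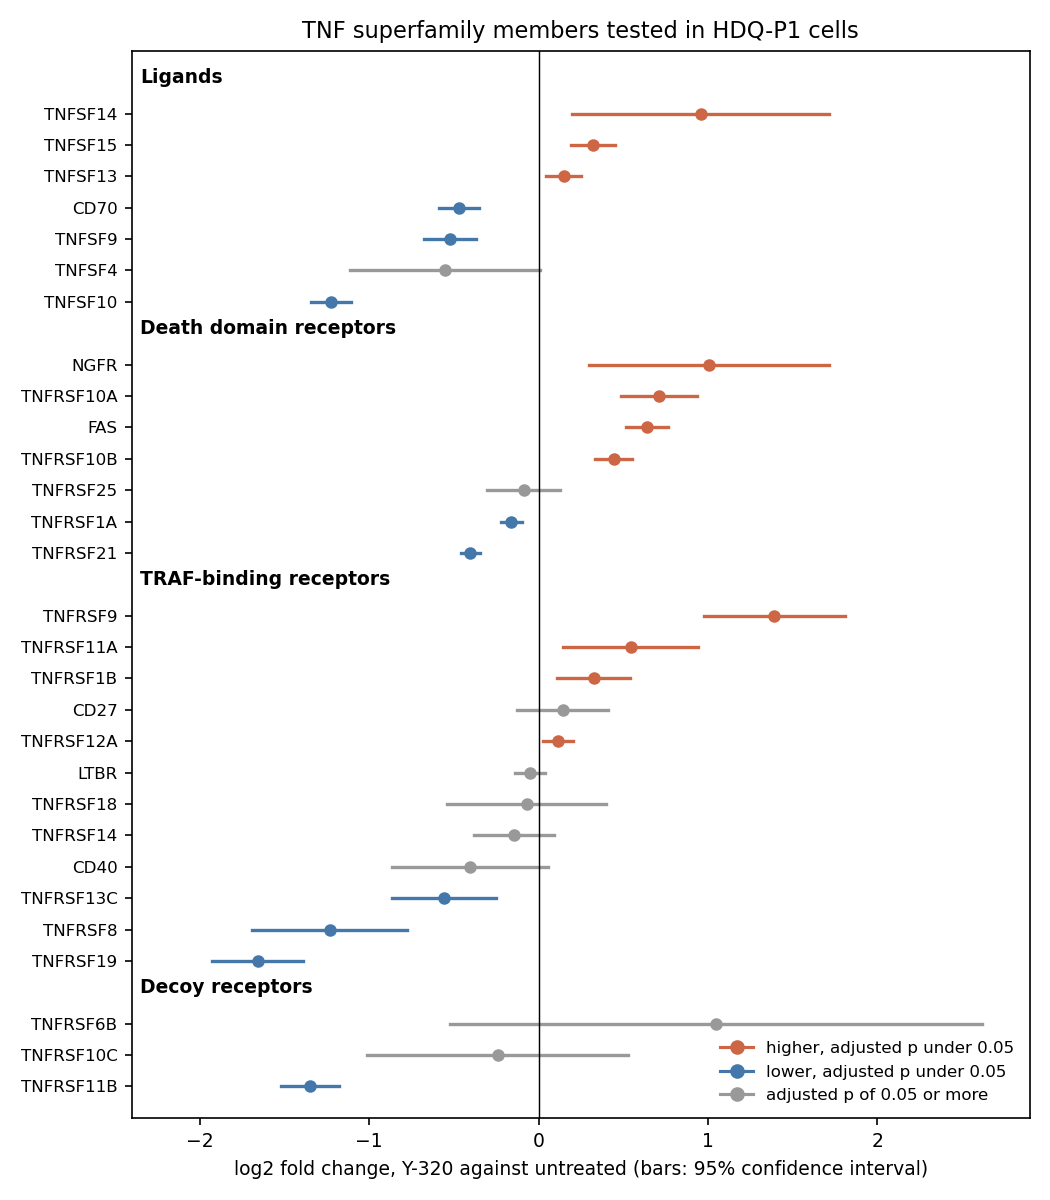
Log2 fold change (horizontal axis, Y-320 against untreated cells) with its 95% confidence interval for the 29 superfamily genes tested, grouped by role and coloured by the edgeR call. Genes that rose (11) and fell (9) both occur in the ligand, death domain and TRAF-binding groups, 1 decoy receptor fell, and the widest interval belongs to TNFRSF6B.

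Among the ligands, Y-320 lowered TNFSF10, TNFSF9 and CD70 and raised TNFSF15, TNFSF13 and TNFSF14. TNFSF10 encodes TRAIL, which triggers apoptosis through TNFRSF10A and TNFRSF10B. It had 1899.49, 1837.58 and 1958.55 estimated counts in untreated replicates 1 to 3 and 946.38, 773.99 and 790.27 in Y-320 replicates 1 to 3. Every treated library lay below every untreated library by a wide margin. Its level fell from 87.6 ± 1.41 to 37.5 ± 3.40 normalized CPM (SD, n = 3), a log2 fold change of -1.22 (SE 0.053, edgeR adjusted p = 3.15e-08), which left 42.8% of the untreated level. Reads of TNFSF10 made up 43.5% ± 0.90 of all ligand reads in untreated cells and 25.6% ± 0.80 with Y-320.

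TNFSF9, the CD137 ligand that costimulates T cells, had 739, 669 and 683 counts in untreated and 561, 436.9 and 501 counts in treated libraries. The groups did not overlap, and the level fell by 0.52 on the log2 scale (SE 0.068, edgeR adjusted p = 1.04e-04). CD70, the ligand of CD27, had 500, 479 and 502 counts in untreated cells against 397, 350 and 352 after Y-320. It too was lower in all treated libraries, by 0.47 on the log2 scale (log2 fold change -0.47, SE 0.053, adjusted p = 3.53e-05). TNFSF4 (OX40L) went from 1.23 ± 0.031 to 0.83 ± 0.21 normalized CPM, and its log2 fold change of -0.55 did not pass the test (adjusted p = 0.092, 95% interval -1.12 to 0.01).

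TNFSF15 (TL1A), the ligand of the death domain receptor TNFRSF25, rose from 31.03 ± 0.90 to 38.8 ± 3.06 normalized CPM (log2 fold change 0.32, SE 0.058, edgeR adjusted p = 8.84e-04). Its share of ligand reads was 15.4% ± 0.38 in untreated and 26.5% ± 0.67 in treated libraries, while the summed level of the ligands went from 201.7 to 146.1 normalized CPM. TNFSF13 (APRIL) rose by 0.15 on the log2 scale (adjusted p = 0.0197), from 25.4 ± 0.23 to 28.1 ± 1.20 normalized CPM. It shares 51.2% of its 31-base words with other genes, mainly the TNFSF12-TNFSF13 readthrough gene, so its reads may be divided between both. The call was lost with DESeq2 (adjusted p = 0.161), without untreated replicate 2 or 3 (log2 fold changes 0.15 and 0.14) and without Y-320 replicate 2 (0.12). TNFSF14 (LIGHT), a ligand of LTBR and TNFRSF14 with a kappaB match in the window printed above, had 14.7, 5.51 and 15.14 counts in untreated cells against 25.39, 27.69 and 19.37 after Y-320. The groups were apart by a few counts only, with a log2 fold change of 0.96 (SE 0.34, adjusted p = 0.0376). The call was lost with DESeq2 (adjusted p = 0.121), without untreated replicate 2 (log2 fold change 0.66) and without Y-320 replicate 1 or 2 (0.95 and 0.82).

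All 7 death domain receptors were detected. Y-320 raised FAS, TNFRSF10A, TNFRSF10B and NGFR and lowered TNFRSF21 and TNFRSF1A. FAS, the receptor of FASLG, had 299.39, 259.4 and 282.16 counts in untreated and 459.43, 435.98 and 451.42 in treated libraries. Each treated library exceeded each untreated one, and the level rose 1.56-fold (log2 fold change 0.64, SE 0.056, edgeR adjusted p = 5.69e-06). The gene lies at 88953813 to 89029605 on chromosome 10 (hg38, plus strand), and 10.1% of its 31-base words are shared with other genes.

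TNFRSF10A, the TRAIL receptor also called DR4, had 252.15, 178.31 and 194.86 counts in untreated cells against 356.56, 352.33 and 341.34 after Y-320. Untreated replicate 1 was the highest of its group but still below all treated libraries. The level rose 1.64-fold (log2 fold change 0.71, SE 0.10, edgeR adjusted p = 1.83e-04). TNFRSF10A shares 17.4% of its 31-base words with other genes, among them a divergent transcript. TNFRSF10B, the other TRAIL receptor with a death domain (DR5), rose from 41.5 ± 2.33 to 56.4 ± 2.59 normalized CPM, a log2 fold change of 0.44 (SE 0.050, adjusted p = 3.35e-05), without overlap. The summed level of both was 51.1 ± 3.73 in untreated and 72.1 ± 2.69 normalized CPM in treated libraries.

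NGFR, the low-affinity neurotrophin receptor, with 24.8% of its 31-base words shared with other genes, was near the limit of detection, with 11, 15 and 9 counts in untreated cells against 28, 17 and 28 after Y-320. Its log2 fold change was 1.01 (SE 0.32, edgeR adjusted p = 0.0223), and the lowest treated library exceeded the highest untreated one by 2 counts. It no longer passed with DESeq2 (adjusted p = 0.0975), without untreated replicate 1 or 3 (log2 fold changes 0.95 and 0.84) or without Y-320 replicate 1 or 3 (0.91 and 0.89). TNFRSF21 (DR6) was the receptor with the most reads, at 449.5 ± 7.88 normalized CPM in untreated and 340.2 ± 8.62 in treated cells. It fell by 0.40 on the log2 scale (SE 0.026, adjusted p = 5.56e-07), and its share of all receptor reads went from 46.4% ± 0.41 to 39.9% ± 0.32. TNFRSF1A, the main TNF receptor of most cells, fell by 0.16 on the log2 scale (SE 0.028, adjusted p = 7.71e-04), from 190.4 ± 3.53 to 170.3 ± 4.16 normalized CPM. TNFRSF25 (DR3) did not pass the test (log2 fold change -0.09, adjusted p = 0.486, 95% interval -0.31 to 0.13).

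**Figure D2:**
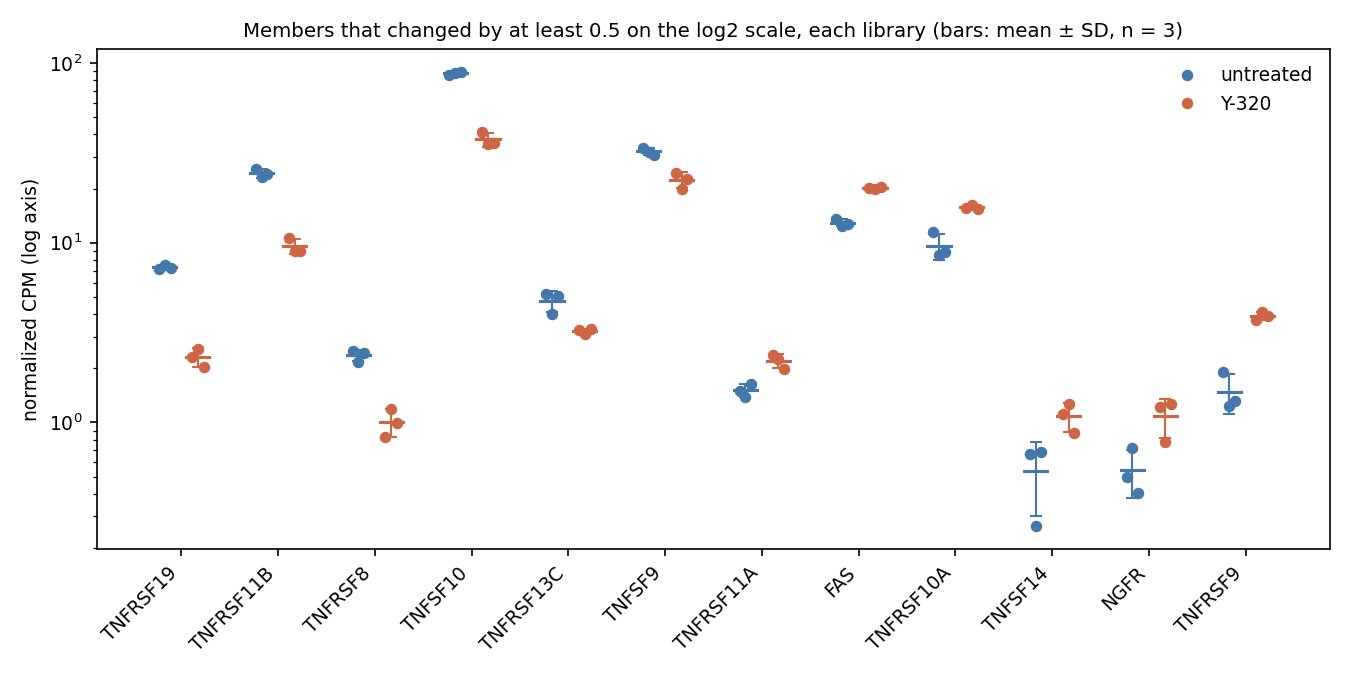
Normalized CPM (log axis) of each library for the 12 members that passed the test with an absolute log2 fold change of at least 0.5, ordered by their change, with the mean and SD of 3 untreated and 3 Y-320 libraries. TNFRSF19, on the left, went from 7.28 to 2.31 and TNFRSF9, on the right, from 1.48 to 3.92, and the groups do not overlap for any of the 12.

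Of the decoy receptors, TNFRSF11B (osteoprotegerin), a secreted receptor that binds TNFSF11 (RANKL) and TRAIL, fell. It had 570.87, 482.5 and 529 counts in untreated and 243.26, 197.48 and 199.09 in treated libraries. The highest treated library was far below the lowest untreated one. The level went from 24.3 ± 1.40 to 9.56 ± 0.94 normalized CPM (log2 fold change -1.35, SE 0.077, edgeR adjusted p = 2.26e-07). TNFRSF10C, a TRAIL decoy, had 15, 12 and 11 counts in untreated cells against 12, 13.57 and 7 after Y-320, and its log2 fold change of -0.24 had a 95% interval of -1.01 to 0.53 (adjusted p = 0.594). It shares 31.3% of its 31-base words with other genes. TNFRSF6B (DcR3) shares 100% of its 31-base words with the RTEL1-TNFRSF6B readthrough gene, so its 0, 14.47 and 16.12 counts in untreated cells against 10.32, 33.08 and 20.72 after Y-320 may partly be counts of that gene. It did not pass the test (log2 fold change 1.05, adjusted p = 0.246), and its log2 fold change was 0.46 without untreated replicate 1, 0.57 without Y-320 replicate 2 and 1.96 with limma-voom.

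The TRAF-binding receptors held both the largest fall and the largest rise of the superfamily. TNFRSF19 (TROY), a receptor known from embryonic skin and the nervous system, had 158, 156 and 159 counts in untreated libraries and 53.04, 56.29 and 45 with Y-320. The untreated libraries were within 3 counts of each other and far above the treated ones, and the log2 fold change was -1.66 (SE 0.12, edgeR adjusted p = 1.34e-06), which left 31.7% of the untreated level. The gene lies at 23570370 to 23676104 on chromosome 13 (hg38, plus strand). TNFRSF8 (CD30), a marker of activated lymphocytes and of Hodgkin lymphoma, had 55, 45 and 54 counts in untreated cells against 19, 26 and 22 after Y-320. The groups did not overlap, and it fell by 1.23 on the log2 scale (SE 0.20, adjusted p = 5.35e-04). TNFRSF13C, the BAFF receptor of B cells, had 114.51, 83.23 and 112.15 counts in untreated cells against 74.6, 67.7 and 73.15 after Y-320. Untreated replicate 2 was the closest of its group to the treated libraries, and the log2 fold change was -0.56 (SE 0.14, adjusted p = 0.00642).

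TNFRSF9 (CD137), an NF-κB-inducible costimulatory receptor known from T cells and the receptor of TNFSF9, rose most. It had 42.11, 25.71 and 28.92 counts in untreated cells against 85.09, 89.87 and 86.64 after Y-320. All treated libraries had more than the highest untreated library, and the level rose 2.62-fold (95% interval 1.97 to 3.50), a log2 fold change of 1.39 (SE 0.19, edgeR adjusted p = 1.20e-04). The gene lies at 7915871 to 7943165 on chromosome 1 (hg38, minus strand), and its window with the kappaB match is among those printed above. TNFRSF11A (RANK), the receptor of TNFSF11, had 33, 29 and 36.16 counts in untreated cells against 54, 49.27 and 44.01 after Y-320. The groups were apart, with a log2 fold change of 0.54 (SE 0.18, adjusted p = 0.0271). It no longer passed with DESeq2 (adjusted p = 0.171), without untreated replicate 1 or 2 (0.54 and 0.49) or without Y-320 replicate 1 or 2 (0.49 and 0.53). TNFRSF1B, the second TNF receptor, rose from 5.24 ± 0.13 to 6.57 ± 0.36 normalized CPM (log2 fold change 0.33, adjusted p = 0.0162). It was not called by DESeq2 (adjusted p = 0.136) or without Y-320 replicate 3 (0.29). TNFRSF12A (Fn14), the receptor of TNFSF12 (TWEAK), rose from 76.1 ± 4.06 to 82.4 ± 1.04 (log2 fold change 0.12, adjusted p = 0.0323). This small change was not called by DESeq2 (adjusted p = 0.0816), without untreated replicate 1 (0.070) or without Y-320 replicate 2 or 3 (0.12 and 0.11).

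The remaining TRAF-binding receptors did not pass the test, which does not show that they were equal in both groups. LTBR, the lymphotoxin β receptor, had the narrowest interval among them (log2 fold change -0.050, 95% interval -0.14 to 0.04), at 117.6 ± 4.87 and 113.5 ± 5.004 normalized CPM. CD40 had 52, 39 and 48.04 counts in untreated cells against 42, 27 and 39 after Y-320, which after scaling did not overlap, and a log2 fold change of -0.40 (edgeR adjusted p = 0.132, 95% interval -0.87 to 0.06). For CD27 the log2 fold change was 0.14 (95% interval -0.13 to 0.41), with 35.8% of its 31-base words also in CD27-AS1. TNFRSF14 (HVEM) had -0.14 (95% interval -0.38 to 0.09) and TNFRSF18 (GITR) -0.07 (95% interval -0.54 to 0.40).

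Ligands and receptors were then read together. Of 27 known ligand and receptor pairs, both partners were detected in 11. In 3 of them the ligand fell and the receptor rose, TNFSF10 with TNFRSF10A, TNFSF10 with TNFRSF10B, and TNFSF9 with TNFRSF9. In 1 pair, TNFSF10 with TNFRSF11B, both fell, and no pair had both partners higher. These pairs are not independent, since TNFSF10 is the ligand in several of them. Across all genes tested, 26.2% rose and 25.4% fell, and a trend over the pairs was not tested. In the TRAIL group the 2 receptors with a death domain were thus higher while the ligand and the secreted decoy were lower. The ratio of TNFSF10 to TNFRSF10B reads was 1.97, 2.12 and 2.27 in untreated and 0.78, 0.61 and 0.61 in treated libraries. The groups were apart, and an exact two-sided permutation test gave p = 0.1, the smallest that 3 against 3 samples allow. The ratio of TNFSF9 to TNFRSF9 reads went from 22.4 ± 4.37 to 5.75 ± 0.87 (n = 3, exact permutation p = 0.1). These ratios are of reads and not corrected for gene length, so only their change between groups can be read.

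**Figure D3:**
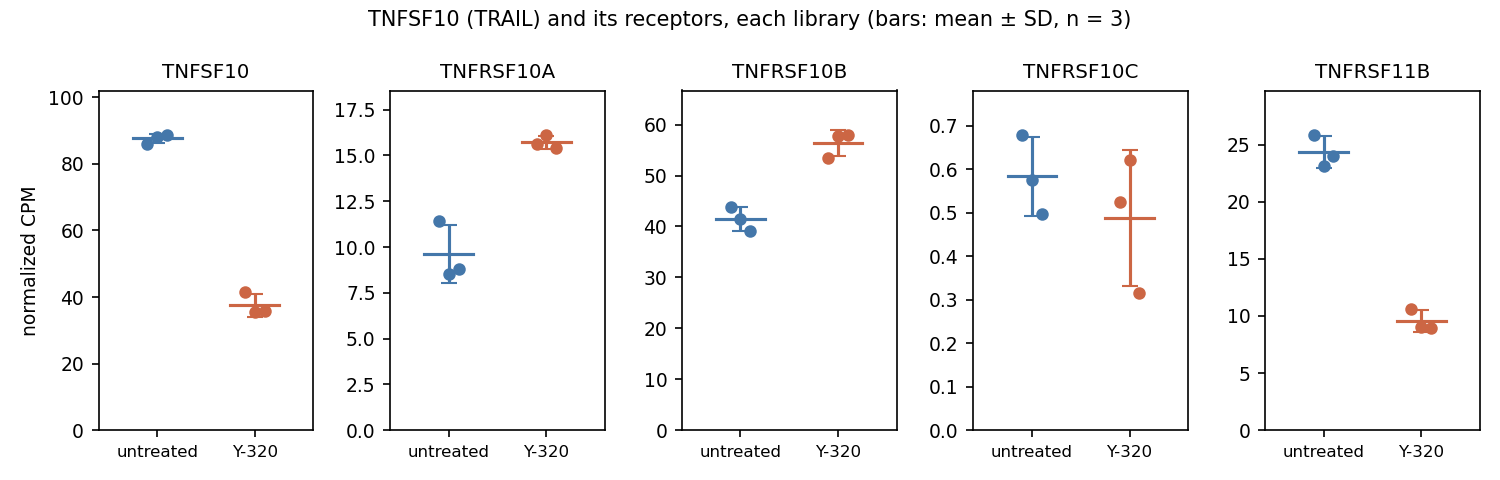
Normalized CPM (linear axis from 0, scaled to each gene) of TNFSF10 and of its 4 detected receptors in each untreated and Y-320 library, with the mean and SD of 3 libraries. TNFSF10 and TNFRSF11B were lower with Y-320, TNFRSF10A and TNFRSF10B were higher, and the libraries of TNFRSF10C overlap.

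Levels of different members were compared per kilobase of the MANE Select transcript, the reference transcript of each gene. On this scale TNFRSF21 was the highest member in untreated cells at 125 normalized CPM per kilobase, followed by TNFRSF1A at 87.7, TNFRSF12A at 77.9, LTBR at 55.1 and TNFSF10 at 46.7. With Y-320 TNFRSF21 was at 94.6, TNFRSF12A at 84.4 and TNFRSF1A at 78.5, while TNFSF10 was at 19.99. CD70 was at 25.01 untreated, below TNFSF10, and at 18.0 with Y-320, where the 2 ligands did not differ beyond their spread. FAS stood at 3.50 and TNFRSF10A at 3.57 in untreated cells, which do not differ beyond their spread, and both were below TNFRSF10B at 10.4. The lowest detected members were NGFR at 0.16 and TNFSF14 at 0.12. The order depends on the length used: per kilobase of all annotated exons joined, FAS was at 0.44, because of long annotated models, and LTBR at 19.1.

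**Figure D4:**
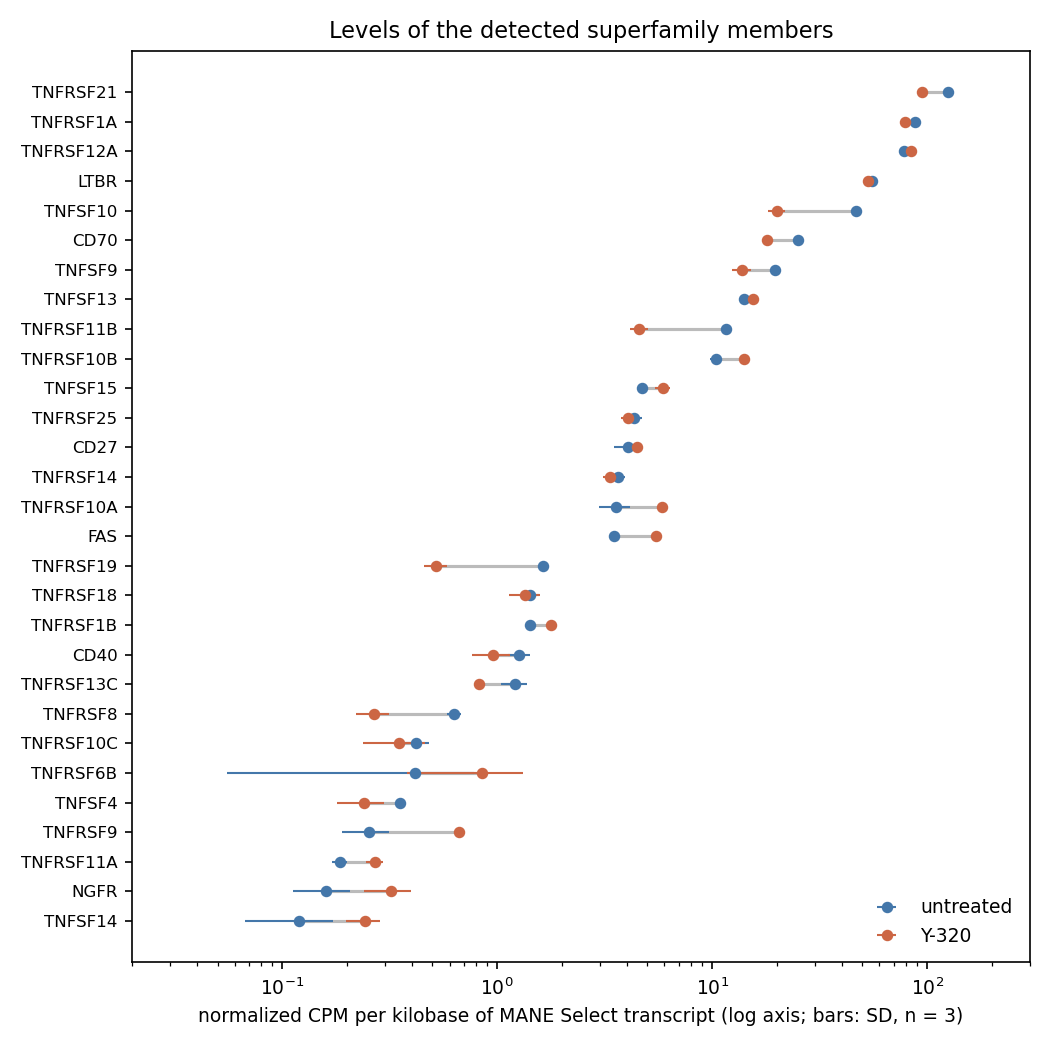
Normalized CPM per kilobase of MANE Select transcript (log axis) for the 29 detected members, ordered by the untreated mean, with the SD of 3 libraries per group. Untreated means run from 0.12 for TNFSF14 to 125 for TNFRSF21, and the gap between groups is wide for TNFSF10, TNFRSF11B, TNFRSF19, TNFRSF8 and TNFRSF9.

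The 12 members under the detection rule were 8 ligands (FASLG, TNF, TNFSF11, TNFSF12, TNFSF12-TNFSF13, TNFSF13B, TNFSF18 and TNFSF8) and 4 receptors (TNFRSF10D, TNFRSF13B, TNFRSF17 and TNFRSF4). For 10 of the 27 pairs the receptor was detected and the ligand was not, among them FAS and both TNF receptors. FASLG had 0 counts in every library. The TNF row held at most 0.57 counts, and 6 unnamed rows carried the same values, so that all 7 rows together held 1 count in an untreated library and 4 in a treated one. TNFSF12 (TWEAK) had 12.97, 8 and 10 counts in untreated cells against 1, 6 and 2 after Y-320, and TNFSF11 had 2, 5 and 3 counts in untreated cells against 10, 10 and 3 after Y-320, both under the filter of the test. Without a filter TNFSF12 was called lower (log2 fold change -1.77, adjusted p = 0.024) and TNFSF11 was not called (adjusted p = 0.202). The readthrough gene TNFSF12-TNFSF13 was called higher there (adjusted p = 0.0105) on 0.15, 0 and 0 counts untreated and 8.79, 0 and 9.46 treated, and 98.5% of its 31-base words are shared. TNFSF12 shares 14.3% of its 31-base words with other genes, 10.9% with this readthrough gene. Its counts of 1 and 2 stood in the treated libraries where the readthrough row had 8.79 and 9.46. Reads may thus be divided between both rows, so these 2 calls are not separate results, and this was not tested. The low counts of the 12 members do not show that the genes are silent, since up to 3 counts can go unseen in a library of this depth.

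Superfamily genes with other names were few. EDAR, the ectodysplasin receptor of skin appendages, fell from 32, 23 and 36 to 15, 12 and 15 counts (log2 fold change -1.15, SE 0.26, edgeR adjusted p = 0.00372). Its ligand EDA (log2 fold change 0.25, adjusted p = 0.522) and RELT (0.22, adjusted p = 0.142) did not pass the test. LTB, a lymphotoxin subunit, was below the detection rule with 2.28, 2.36 and 0.75 counts in untreated cells against 9.19, 12.63 and 8.86 after Y-320. CD40LG, EDA2R and LTA had at most 1 count. Whether unnamed rows hold part of the reads of LTB and LTA, as for TNF, was not examined, so their counts may be too low.

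Genes that carry the signal from these receptors were described from lists written from general knowledge, with earlier results of these data known. Their counts therefore describe the lists and do not test them. Of 9 tested genes of the linear ubiquitin and deubiquitinase arm, 8 rose and 0 fell, where 26.2% of all genes tested rose and 25.4% fell, and the median log2 fold change was 0.33 against 0.00. TNFAIP3 (A20), a deubiquitinase that ends NF-κB signalling and is itself an NF-κB target, rose by 2.07 (SE 0.049, edgeR adjusted p = 7.65e-10), from 15.9 to 66.9 normalized CPM. Its partner TNIP1 rose by 1.02, and the deubiquitinase CYLD by 0.81 on the log2 scale. Of 18 genes of the TRAF, cIAP and kinase arm, 9 rose and 4 fell (median 0.14), the latter about the 25.4% of all genes. BIRC3 (cIAP2), a ubiquitin ligase of the receptor complexes, rose by 1.85 (SE 0.053, adjusted p = 2.40e-09), from 13.2 to 47.5 normalized CPM, TRAF1 by 0.82 and TRAF2 by 0.42, while TRAF5 fell by 0.37 on the log2 scale. Of 12 genes of the death domain and caspase arm 4 were higher and 4 lower (median 0.04), not far from the 26.2% and 25.4% of all genes.

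In the caspase arm, RIPK1, a kinase of the TNF receptor complex, had a log2 fold change of 0.36 and the adaptor TRADD of 0.29. CASP10 and CASP8, the initiator caspases of FAS and the TRAIL receptors, had log2 fold changes of -0.50 and -0.31. For shedding, 3 genes rose and 3 fell of 6 tested (median -0.09), where 51.5% of all genes changed. ADAM17, the protease that releases TNF and both TNF receptors, rose by 0.54 (SE 0.030, edgeR adjusted p = 2.16e-07), whereas its inhibitor TIMP3 fell by 0.47 and ADAM10 by 0.33 on the log2 scale. The list of genes named as induced by TNF took all TNFAIP symbols, including genes named only for likeness to TNFAIP8. Of its 6 tested genes, 2 were higher and 3 lower, against 26.2% and 25.4% of all genes. TNFAIP3 and TNFAIP1 were higher, TNFAIP2 and TNFAIP8 were lower, and so was the TNFAIP8-like gene TNFAIP8L1. Over all these signalling lists, with each gene counted once, 25 of 50 tested genes rose and 14 fell, against 26.2% and 25.4% of all genes.

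**Figure D5:**
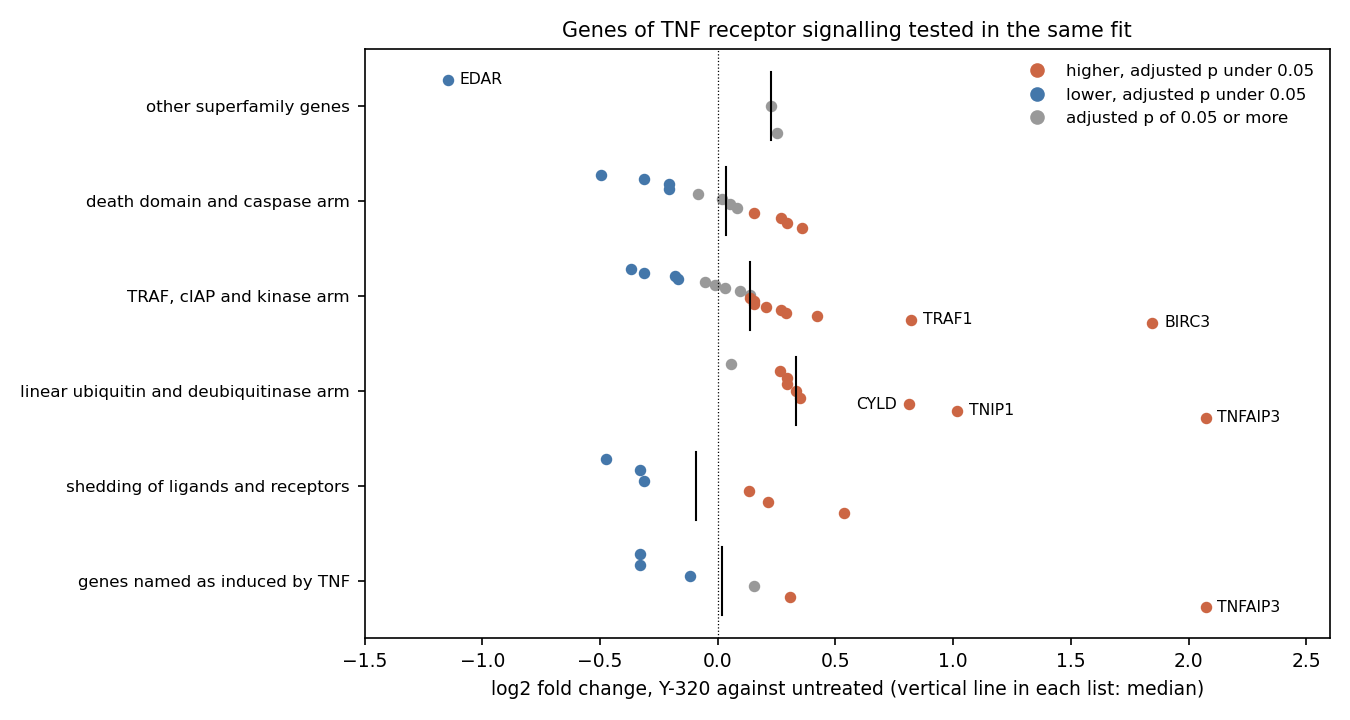
Log2 fold change (horizontal axis, Y-320 against untreated cells) of each tested gene in the lists of further superfamily and signalling genes, coloured by the edgeR call, with a vertical line at the median of each list. TNFAIP3 (2.07) and BIRC3 (1.85) lie farthest to the right and EDAR (-1.15) farthest to the left.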

How the data were processed

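RNA-seq of HDQ-P1 cells gave 3 untreated and 3 Y-320 libraries (1 μM, 48 h), grouped by their labels. The authors deposited estimated counts per Ensembl gene, not normalized, in 1 table. The submitters' processing notes name kallisto 0.46.1 and the GRCh38 and hg38 builds, while the Ensembl release is not given in the sources used here. kallisto divides reads among matching transcripts, and 40.1% of the values were not whole (tolerance 0.001). Of 40295 identifiers 35390 had a gene name, and 4 identifiers with antisense or divergent names under the rule had no row.

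Estimated counts were rounded, and edgeR 4.0.16 (R 4.3.3) filtered genes by filterByExpr (at least 10 counts, 15 in total) and its quasi-likelihood test was fitted to all genes after TMM scaling, with groups as the only term, Benjamini-Hochberg adjustment and a threshold of 0.05. The script was tested on simulated data. The alternatives were a stricter or no filter, RLE and total-count scaling, DESeq2 1.42.0, limma-voom (limma 3.58.1), a replicate block, each library left out, unrounded counts, rows summed by symbol, a threshold of 0.01 and other gene lengths. The MANE Select length was added after the data were seen. Coordinates, lengths and shared 31-base words came from GENCODE 44 on hg38, and upstream sequences from RefSeq (26 members matched). Tables used pandas 2.3.3 in Python 3.11.15, exact tests scipy 1.17.1 with numpy 2.4.6, and plots matplotlib 3.10.9.

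Every member was named. Those past the threshold with an absolute log2 fold change of at least 0.5 were given with each library's count, and of each further list at most 5 genes were named, those with the largest changes past the threshold, plus all other superfamily genes. The members and lists were chosen with earlier results of these data known.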

Additional observations from a re-analysis of the deposited data

How the results depend on the processing

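The count of superfamily genes that fell was 9 in all fits but the one without a filter (10). The count that rose, 11, was 5 with DESeq2 and 5 at an adjusted p under 0.01, and 7 to 9 when each library was left out (7 without Y-320 replicate 2, 9 without untreated replicate 3). The genes that lost their call in at least 1 fit were NGFR, TNFRSF11A, TNFSF14, TNFRSF12A, TNFSF13 and TNFRSF1B, all 6 of them with DESeq2, and the other 14 of 20 called genes kept theirs in every fit that tested them. With the replicate block 9 genes rose and 9 fell, without TNFSF14 (adjusted p = 0.0627) and TNFRSF11A (adjusted p = 0.0525). The same-numbered libraries did not deviate together (correlations of -0.03, 0.05 and 0.01 over 15077 genes), so the numbers were not taken as pairs. Without 1 library the log2 fold change of TNFRSF18, which had not passed the test, ranged from -0.20 to 0.038 (without Y-320 replicate 2) and so reversed. RLE and total-count scaling moved the median of all genes by -0.0008 and 0.013. Depth limits members near 10 counts, such as NGFR and TNFSF14, where a few reads separate the groups.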
